A study of Mus musculus with 7 samples.

Results

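Glycolysis turns glucose into pyruvate and lactate. The 10 mouse genes described here code for the glucose carrier of the cell surface and for enzymes of that route: Slc2a1, Gpi1, Aldoa, Tpi1, Gapdh, Pgk1, Pgam1, Eno1, Pkm and Ldha. They were chosen by name, as a widely used glucose transporter and the common forms of most enzymes after glucose 6-phosphate, and every row of these symbols was used. Of the 10, 8 have a row among the 11753 genes of experiment (ii), and 9 have a row in libraries 1 and 2 of experiment (i). Aldoa and Ldha have no row in experiment (ii), and Eno1 has none in those libraries of experiment (i).

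The series profiled single cells of mouse mammary tumours driven by polyoma middle T (PyMT), an oncogene that gives a mouse model of breast cancer. RNA was read with CEL-seq, which tags each cell and each molecule and reads near the 3' end of a transcript. Experiment (ii) put 4 sorted populations into 4 libraries: TEpos and TEneg, from the solid tumour, positive and negative for E-cadherin, and BEneg and BEpos, sorted as circulating tumour cells by the same protein. Experiment (i) held 3 libraries of E-cadherin-positive cells of primary tumours. All groups therefore carry the PyMT background, and no group is untreated tissue of a tumour-free mouse. The labels give no strain, age, number of animals or pooling. TEpos, TEneg and BEneg each had wells in all 4 libraries, and BEpos had wells in library 1 alone.

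Most enzymes of glycolysis are made by nearly every cell, since the route feeds both energy and building blocks. Tumour cells often run it fast even with oxygen at hand, and many of its genes are known targets of the hypoxia-inducible factors. White blood cells, neutrophils above all, also depend on glycolysis, on stored glycogen and on the pentose phosphate pathway, which branches off after glucose 6-phosphate and makes NADPH for the oxidative burst.

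Gapdh has a near-identical copy among the measured genes, and its values have to be read with that in view. Gm12070 is annotated in GENCODE M21 (GRCm38) as a processed pseudogene at chr11:26786633-26787634, plus strand, and has a row of its own in both experiments. Its 1002 annotated bases differ from the coding sequence of Gapdh at 1 position, G361A, counted from the A of the start codon, with the base of Gapdh given before the position. Bases 331 to 391 of both are shown because they hold the only difference, which is in capitals.
Gapdh coding sequence: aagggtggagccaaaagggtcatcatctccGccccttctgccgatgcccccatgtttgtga
Gm12070: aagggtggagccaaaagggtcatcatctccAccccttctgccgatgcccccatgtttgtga
BEpos sums held 11 transcripts of Gm12070 and 39 of Gapdh, BEneg sums 33 and 110, and TEpos sums 112 and 318. The sources used here do not give how reads that fit both were assigned, so a share of the molecules counted for either gene may belong to the other. The last 200 bases of Gapdh also shared 138 of 166 windows of 35 bases with other annotated genes, and those of Eno1 shared 163 of 166 with Eno1b. The other 8 members shared no such window.

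Wells with 500 or more transcripts were used: 20 of BEpos, 60 of BEneg, 69 of TEneg and 71 of TEpos. Summed per library, BEneg gave 11134 to 25316 transcripts, TEneg 17136 to 109548 and TEpos 27350 to 71733, while the only BEpos sum came to 75009. BEneg cells were the shallowest, with a median of 819 transcripts, against 1603 for TEneg, 2064 for TEpos and 3803 for BEpos. Markers of the labelled cell types were present in the tumour populations, but not in the blood ones at like levels. Epithelial markers summed to 52.2 per 10000 transcripts in TEpos (range over libraries 41.3 to 67.8), 29.03 in TEneg (18.1 to 39.3) and 10.1 in BEneg (5.71 to 13.5), and to 0.933 in BEpos. Neutrophil markers, 8 of 8 with a row, summed to 24.7 in TEpos (17.6 to 38.03), 25.9 in TEneg (9.86 to 40.8) and 790 in BEneg (459 to 1042). BEpos held 206 per 10000 of them together with 18.5 of B cell and 10.3 of T and NK cell markers. Monocyte and macrophage markers (6 of 7 with a row) summed to 102 in BEneg (78.6 to 140.1), against 2.45 in TEpos (0.976 to 3.66) and 4.13 in TEneg (2.10 to 7.71). TEneg alone of the 3 held more basal and myoepithelial markers, 29.5 (7.30 to 51.9) against 1.93 (1.01 to 2.51) in TEpos and 1.297 (0.395 to 2.69) in BEneg, and more endothelial markers, 3.83 (1.17 to 6.61) against 0.2996 (0 to 0.665) and 0.402 (0 to 0.816). Cdh1, which codes for E-cadherin, was at 5.87 ± 3.37 in TEpos, 4.16 ± 1.94 in TEneg and 3.87 ± 1.59 in BEneg (SD, n = 4), and at 0.133 from 1 transcript in BEpos. TEpos and TEneg thus differed by less than the larger SD, BEpos lay below BEneg against the direction of the sort, and positive and negative below are the labels of the sort. Marker levels thus differ between the populations compared below, and their part in the differences reported there was not tested.

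A share below is the number of transcripts of a gene per 10000 transcripts of the summed cells. CEL-seq counts a molecule once whatever its length, so shares of different genes can be set side by side where their rows are complete. Aldoa, Ldha, Pkm and Eno1 cannot be ranked in experiment (ii), and reads of Gapdh may be split with Gm12070. Gapdh, which makes NADH at the middle of the route (chr6:125161715-125166467, minus strand), was the most abundant of the 6 members with usable counts. This held in every population of experiment (ii). Its share in libraries 1 to 4 was 14.6, 17.98, 17.6 and 17.9 in TEpos. In TEneg it was 14.3, 12.9, 18.2 and 16.9. In BEneg it was 14.3, 17.8, 15.2 and 10.8. The means were 17.04 ± 1.61, 15.6 ± 2.42 and 14.5 ± 2.89 (SD, n = 4 libraries), and the ranges of all 3 populations overlapped. In TEneg library 2, 1 large cell of 61227 transcripts gave 76 of the 141 Gapdh transcripts, and the share without it was 13.4. With the transcripts of Gm12070 added, the means were 23.8 ± 3.70, 21.7 ± 4.58 and 18.98 ± 3.78 in the same order, so the near-identical row held a sizeable part of the joint signal in each.

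The other 5 members with usable counts stood several times lower, and the ranges of TEpos, TEneg and BEneg overlapped for each of them. Tpi1, which interconverts the products of aldolase (chr6:124810586-124814296, minus strand), had shares of 4.04, 3.21, 5.32 and 3.29 in TEpos libraries 1 to 4. In TEneg its shares were 1.61, 2.56, 3.85 and 1.17. In BEneg they were 0.816, 5.14, 3.38 and 2.69. The means were 3.96 ± 0.977 in TEpos, 2.298 ± 1.19 in TEneg and 3.01 ± 1.79 in BEneg (SD, n = 4). TEneg was below TEpos within each of the 4 libraries, by more on average than either SD, while BEneg spread over the widest range.

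Pgam1, which moves the phosphate of 3-phosphoglycerate (chr19:41911923-41918660, plus strand), averaged 3.72 ± 1.27 in TEpos, 3.54 ± 3.18 in TEneg and 2.72 ± 0.835 in BEneg (SD, n = 4). The spread in TEneg came mainly from library 4, at 8.17 per 10000 from 14 transcripts, while the other TEneg libraries stood between 1.10 and 3.01. Pgk1, the ATP-making kinase of the route (chrX:106187100-106203699, plus strand), averaged 2.36 ± 0.687 in TEpos, 2.94 ± 0.662 in TEneg and 3.397 ± 1.56 in BEneg. The BEneg libraries ran from 1.80 to 5.31, beyond the highest tumour library at 3.501.

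Gpi1, which turns glucose 6-phosphate into fructose 6-phosphate (chr7:34201330-34230336, minus strand), was at 2.02, 2.23, 2.33 and 1.83 per 10000 in TEpos libraries 1 to 4. In TEneg it was at 2.69, 2.65, 0.550 and 4.08. In BEneg it was at 3.67, 3.16, 5.07 and 1.80, above TEpos in libraries 1 to 3 and just below it in library 4. Slc2a1, the glucose carrier GLUT1 (chr4:119108711-119137983, plus strand), was the least abundant of the members with usable counts. It had 12 transcripts in TEpos, 10 in TEneg and 6 in BEneg. Its means were 0.559 ± 0.250, 0.599 ± 0.149 and 0.844 ± 0.668, and BEneg library 2 held none, which at 3 counts allows up to 1.19 per 10000 there. Counts this low cannot order the populations for Slc2a1.

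**Figure D1:**
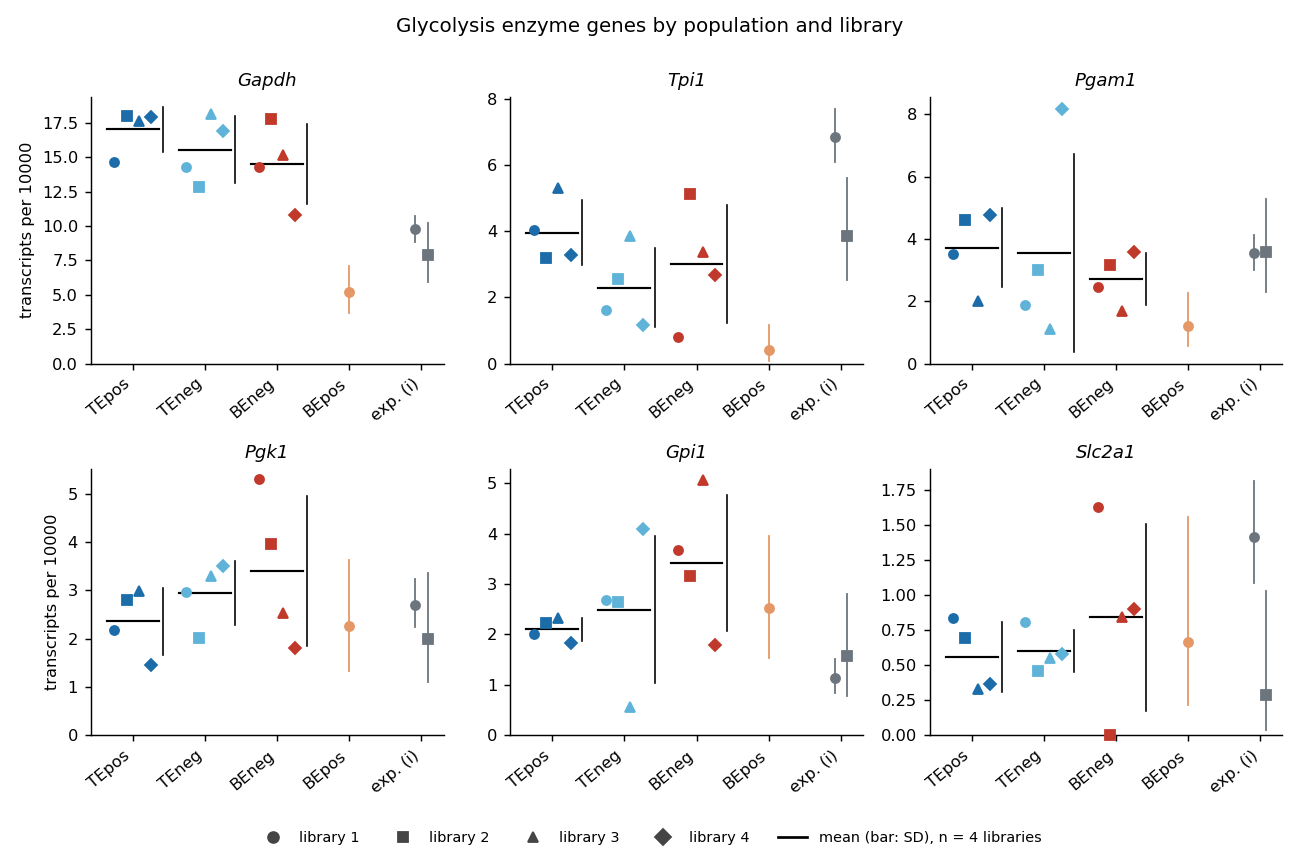
Transcripts per 10000 (vertical axis) of 6 glycolysis enzyme genes in each library of the 4 populations of experiment (ii) and in libraries 1 and 2 of experiment (i). Points are libraries, black lines are means with SD bars beside them (n = 4), and coloured bars on BEpos and experiment (i) are exact 95% Poisson intervals. The TEpos, TEneg and BEneg points of Gapdh overlap, and BEpos lies below them at 5.20.

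Summed over Gapdh, Tpi1, Pgam1, Pgk1, Gpi1 and Slc2a1, the share was 27.2, 31.5, 30.6 and 29.6 per 10000 in TEpos libraries 1 to 4. TEneg had 24.2, 23.6, 27.5 and 34.4. BEneg had 28.2, 33.2, 28.7 and 21.6. As shares of all transcripts the 3 populations thus held like amounts, with means of 29.7 ± 1.83, 27.4 ± 4.98 and 27.9 ± 4.79 (SD, n = 4). Gapdh alone gave 17.04, 15.6 and 14.5 of these means. The tests below use another scaling, and the median log2 fold changes of the members are given there.

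The first comparison asked how tumour cells sorted as E-cadherin-negative differed from those sorted as positive. Of the 490 genes tested with edgeR, 6.33% changed at a Benjamini-Hochberg adjusted p under 0.05. Gapdh and Tpi1 were the 2 members with enough transcripts for that test, and 0 of the 2 passed (0 at an unadjusted p under 0.05). The log2 fold change of TEneg over TEpos was -0.05 for Gapdh (SE 0.18, 95% interval -0.43 to 0.33, adjusted p = 0.932) and -0.68 for Tpi1 (SE 0.42, interval -1.54 to 0.18, adjusted p = 0.403, lower in 4 of 4 libraries). For Gapdh the interval leaves room for at most a modest difference in either direction. For Tpi1 it includes both no difference and a drop of more than 1 on the log2 scale.

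The same fit compared BEneg, the cells from blood sorted as negative, with both tumour populations, and these comparisons share the BEneg sums. Of the 490 genes, 41% changed between BEneg and TEneg and 48.2% between BEneg and TEpos, and again 0 of the 2 tested members passed in either (0 at an unadjusted p under 0.05). Gapdh differed by 0.19 between BEneg and TEneg (SE 0.21, interval -0.24 to 0.61, adjusted p = 0.515). Against TEpos it differed by 0.14 (SE 0.20, interval -0.28 to 0.55, adjusted p = 0.616). The sign of both values depends on scaling: with total transcripts in place of TMM they were -0.26 and -0.26, and the raw share of Gapdh was lower in BEneg than in TEpos in 4 of 4 libraries. That scaling moved the median of all genes from -0.05 to -0.49 (BEneg over TEneg) and from -0.08 to -0.48 (BEneg over TEpos), so relative to the median gene Gapdh was on the positive side under both. With Gm12070 added to Gapdh, the log2 fold changes were -0.04 (TEneg over TEpos), 0.11 (BEneg over TEneg) and 0.07 (BEneg over TEpos), and none passed (adjusted p = 0.936, 0.708 and 0.807 with edgeR). Tpi1 was at 0.59 against TEneg (SE 0.50, adjusted p = 0.382) and at -0.09 against TEpos (SE 0.46, adjusted p = 0.896). With limma on means of cells in place of edgeR, Tpi1 was called lower in BEneg than in TEpos, at -0.61 (adjusted p = 0.0395). The median of all 490 genes under that setting was -0.74, with 279 called lower, so Tpi1 was not below the median gene.

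Pgk1, Pgam1, Gpi1 and Slc2a1 were tested when members and other pathway genes with at least 10 transcripts were kept beside the 490, which gave 552 genes. Then 6.16% of genes changed between TEneg and TEpos, 37% between BEneg and TEneg and 44.2% between BEneg and TEpos, and 0 of the 6 members did so in any of them. The median log2 fold change of the 6 members was 0.01 (TEneg over TEpos), 0.58 (BEneg over TEneg) and 0.39 (BEneg over TEpos). That of all 552 genes was 0.01, -0.11 and -0.10. Gpi1 and Pgk1 came nearest to a difference, both higher in BEneg than in TEpos in 3 of 4 libraries. Gpi1 had a log2 fold change of 1.01 (SE 0.48, interval 0.03 to 1.999, adjusted p = 0.0922) and Pgk1 one of 0.94 (SE 0.45, interval 0.01 to 1.86, adjusted p = 0.0959). Both had an unadjusted p under 0.05, and neither passed after adjustment. Gpi1 passed when wells from 250 transcripts upward were used (1.09, adjusted p = 0.0495). Pgam1 was at -0.13 against TEpos (SE 0.44, adjusted p = 0.852), and limma on means of cells called it lower (-0.65, adjusted p = 0.0297), near the median of -0.61 that all 552 genes had under that setting. Slc2a1 had an interval from -1.22 to 2.51 in the same comparison, so at this depth a large difference in either direction would not be detectable.

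**Figure D2:**
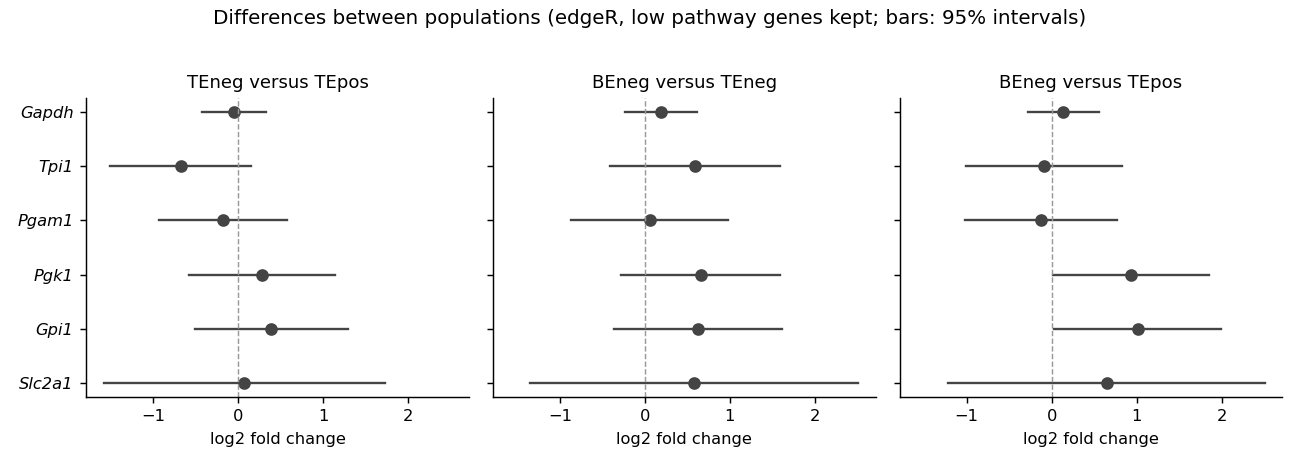
Log2 fold changes (horizontal axis) of 6 glycolysis enzyme genes in the 3 comparisons, from edgeR with low pathway genes kept; points are estimates and bars are 95% intervals. Intervals of Gapdh are the narrowest and those of Slc2a1 the widest, and those of Gpi1 and Pgk1 in BEneg versus TEpos lie just above 0 before adjustment.

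BEpos stood apart from the other populations in Gapdh, with no test because it was in 1 library. It held 39 Gapdh transcripts of 75009, a share of 5.20 per 10000 (exact Poisson 95% interval 3.70 to 7.11, counting error only). In the same library the share was 14.6 in TEpos, 14.3 in TEneg and 14.3 in BEneg. The ratio of BEpos to TEpos was 0.355 (interval 0.237 to 0.524), to TEneg 0.365 and to BEneg 0.364, so the value was similarly low against each. Gm12070, the near-identical row, was low in BEpos too, at 1.47 per 10000 against 5.04, 3.77 and 5.31 in TEpos, TEneg and BEneg of that library.

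The members did not all follow Gapdh in BEpos. Tpi1 was at 0.400 per 10000 from 3 transcripts, a ratio to TEpos of library 1 of 0.0991 (counting interval 0.0191 to 0.326), and Pgam1 had 9 transcripts, a ratio of 0.340 (0.137 to 0.774). Pgk1 was at 2.27 and Gpi1 at 2.53, with ratios to TEpos of 1.04 (0.474 to 2.32) and 1.26 (0.579 to 2.84). In total the 6 members came to 12.3 per 10000 in BEpos (9.89 to 15.04), which was 0.450 of the TEpos value of library 1 (0.345 to 0.585). Against TEpos of library 1, Gapdh, Tpi1 and Pgam1 were thus lower beyond counting error, while Pgk1 and Gpi1 were not separable from it. Against the other populations of that library the pattern was not the same. The ratios of Tpi1 to TEneg and BEneg, 0.248 (0.0401 to 1.16) and 0.490 (0.0561 to 5.87), did not exclude equal shares, nor did those of Pgam1, 0.637 (0.211 to 2.01) and 0.490 (0.156 to 1.67). Pgk1 was below BEneg, with a ratio of 0.427 (0.195 to 0.956). Of the 6 members, only Gapdh was lower than all 3 beyond counting error. BEpos is also the population with the B and T cell markers given above and with 1 transcript of Cdh1, and the part of these cells in its values was not tested.

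Among single cells the summed share of the 6 members spread widely in every population. The median cell of BEpos held 10.46 per 10000, and those of BEneg, TEneg and TEpos held 24.5, 23.2 and 25.7. The lowest cells held none (2, 6, 2 and 3 cells in that order), and the highest held 30.2, 125.1, 93.999 and 100.8. The highest value of a population depends on how many cells it has and how deep they are, and BEpos has the fewest cells and the highest median depth, so the highest cells are not compared. At the depth of most cells 1 transcript more or less moves the share by several units, so the spread includes counting error.

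**Figure D3:**
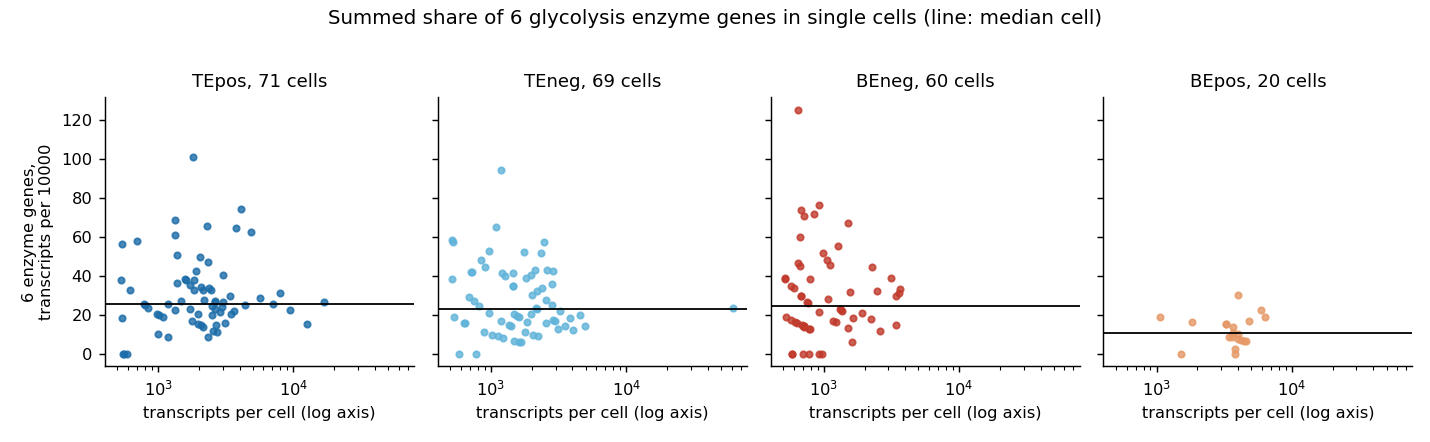
Summed share of 6 glycolysis enzyme genes (vertical axis, transcripts per 10000) against transcripts per cell (horizontal, log axis) for the used cells of each population; the line is the median cell. The median is 10.46 in BEpos and 23.2 to 25.7 in the other populations.

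The share of cells with at least 1 Gapdh transcript was 84.5% ± 6.87 in TEpos, 83.1% ± 13.1 in TEneg and 69.1% ± 12.3 in BEneg (SD, n = 4), and 75% in BEpos. After each cell was thinned to 500 transcripts, the shares were 52.3% ± 7.90, 52.1% ± 11.3 and 49.4% ± 9.37, and 20.3% in BEpos. At equal depth TEpos, TEneg and BEneg thus differed by less than their spread over libraries, and the lower unthinned share of BEneg went with its shallower cells. BEpos, the deepest population, fell below the others after thinning.

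Experiment (i) showed members that experiment (ii) could not. In its library 1 (95 cells) Ldha, which makes lactate from pyruvate (chr7:46841475-46855627, plus strand), was the most abundant of 9 members with a row. It had 805 transcripts and 18.4 per 10000. Aldoa, which splits fructose bisphosphate (chr7:126795234-126800751, minus strand), followed with 656 transcripts and 14.97 per 10000. Library 2 (65 cells) gave 15.4 for Ldha and 15.9 for Aldoa, so their order was not the same in both. Pkm, the pyruvate kinase of most tissues (chr9:59656368-59679375, plus strand), was at 8.03 and 5.72 per 10000, from 352 and 40 transcripts.

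In experiment (ii) Pkm had a row with 1 transcript in all, in TEpos library 1, and Eno1, the enolase gene (chr4:150236721-150248879, plus strand), had 2, in TEneg library 3 and BEneg library 4. In tumour cells sorted as E-cadherin-positive, Pkm transcripts were thus counted in experiment (i), and almost none were counted in experiment (ii). Such gaps were not special to glycolysis: of the 500 most abundant genes of experiment (i) library 1, 34 have no row in experiment (ii), and 38 of those of library 2. The 4 members with a gap, Aldoa, Eno1, Ldha and Pkm, have 2 or 3 starts each in RefSeq (GRCm38.p6), and the 6 without one have 1 start each. Among the 500 genes of library 1 that RefSeq lists, 53.6% of the 28 without a row have several starts, and 14.5% of the 345 with a row. What made the tables differ was not tested, and nothing is read from the low values of Pkm and Eno1 about expression.

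**Figure D4:**
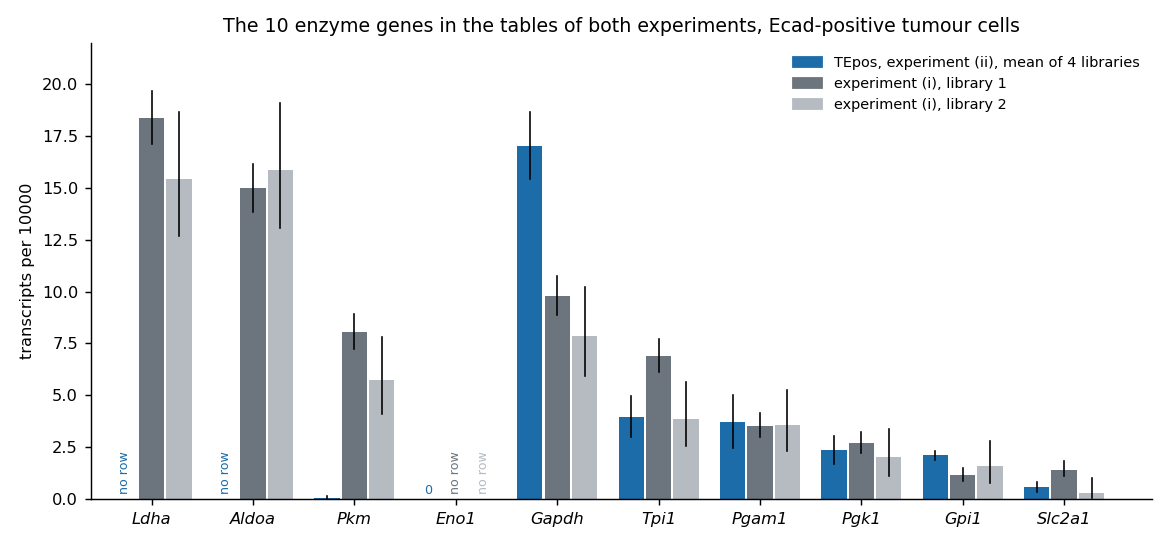
Transcripts per 10000 (vertical axis) of the 10 enzyme genes in E-cadherin-positive tumour cells, as the TEpos mean of experiment (ii) with SD bars (n = 4) and as libraries 1 and 2 of experiment (i) with exact 95% Poisson intervals. Ldha and Aldoa, at 14.97 to 18.4 in experiment (i), have no row in experiment (ii), and Pkm is near 0 there.

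For the members with counts in both, levels differed by gene. Gapdh was at 9.77 and 7.86 per 10000 in libraries 1 and 2 of experiment (i), below all 12 sums of TEpos, TEneg and BEneg and above BEpos, while Gm12070 was at 4.87 and 9.06. In library 2 the pseudogene row thus held more transcripts (63) than Gapdh itself (55). Tpi1 was at 6.87 and 3.86, Pgam1 at 3.54 and 3.57, Pgk1 at 2.69 and 2.001, Gpi1 at 1.14 and 1.57 and Slc2a1 at 1.42 and 0.286. The tables were made separately, so these levels are set side by side with no test. Library 2 also held fewer epithelial and more leukocyte marker transcripts than library 1 (36.2 against 83.6 and 43.6 against 3.33 per 10000), and their part in its values was not tested. Within library 1, rank correlations between the shares of 9 members over 95 cells were low and above 0 in 36 of 36 pairs (0.01 to 0.38, median 0.18). The highest was 0.38 between Aldoa and Ldha, and all pairs share the depth of the cells.

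Around these enzymes, some genes of the neighbouring routes differed between blood and tumour. Of 97 other pathway genes listed in 7 groups, 77 have a row and 6 were abundant enough for the test. Between TEneg and TEpos 0 of the 6 changed. In both BEneg comparisons 5 of the 6 did: Taldo1 and Pygl were higher, and Aldoc, Mdh1 and Mif were lower. Pygl passed the filter through BEneg alone, with 0 transcripts in TEneg and 2 in TEpos. Aldoc, Mdh1 and Mif passed through the tumour sums alone, with BEneg shares of at most 1.80, 1.69 and 2.69 per 10000. The filter thus favoured the calls of Pygl, Aldoc, Mdh1 and Mif, and the count of 5 is not read as support for a change of these routes. Of all 490 genes 23.9% were higher and 17.1% lower than in TEneg, and 27.1% were higher and 21% lower than in TEpos. Mdh2, a mitochondrial enzyme of the citrate cycle, was the other of the 6 and passed in neither. With low genes kept, 64 of the 77 were tested. Of these, 5 were higher and 5 lower than in TEneg, and 7 were higher and 6 lower than in TEpos. Of all 552 genes 37% changed against TEneg and 44.2% against TEpos, so the lists together were called less often than all genes. The genes added to that fit were those too low for the main test.

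Taldo1, the transaldolase of the pentose phosphate pathway, had shares of 15.5, 13.8, 13.5 and 8.08 per 10000 in BEneg libraries 1 to 4. In TEpos they were 4.04, 4.88, 3.32 and 6.95, and in TEneg 3.498, 4.11, 3.85 and 4.08. Every BEneg library was above every tumour library. It rose by 1.95 on the log2 scale over TEneg (SE 0.30, adjusted p = 4.8e-06) and by 1.80 over TEpos (SE 0.28, adjusted p = 5.5e-06). Pygl, a glycogen phosphorylase that frees glucose from glycogen, had 12, 15, 5 and 8 transcripts in the BEneg libraries, 0 in all of TEneg and 2 in all of TEpos. Over the group this was at least 33.3-fold higher than TEneg at a floor of 3 counts, and 51.8 times TEpos (counting interval 13.4 to 443).

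With low genes kept, the pentose phosphate group had 7 of 8 genes tested, and 3 rose in both BEneg comparisons, Taldo1, Pgd and G6pdx, with 0 lower. Of the 552 genes 21.4% were higher and 15.6% lower than in TEneg, and 25.2% were higher and 19% lower than in TEpos. The median of the group was 1.199 against TEneg and 1.22 against TEpos, and that of all 552 genes was -0.11 and -0.10. G6pdx, the entry enzyme of the pathway, had 22 transcripts in BEneg, 10 in TEneg and 14 in TEpos, and rose by 2.48 (SE 0.72, adjusted p = 0.0058) and 2.29 (SE 0.66, adjusted p = 0.0049) on the log2 scale. Pgd, which follows on it in making NADPH, had 32, 25 and 21 transcripts and rose by 1.98 (SE 0.54, adjusted p = 0.0036) and 2.33 (SE 0.53, adjusted p = 0.00052). Some of these calls were lost with 3 libraries, while the log2 fold changes with 1 library left out ran from 2.02 to 3.45 (G6pdx against TEneg), 2.03 to 2.75 (G6pdx against TEpos) and 1.58 to 2.25 (Pgd against TEneg). Without library 1, the edgeR adjusted p of G6pdx was 0.0880 against TEneg and 0.0517 against TEpos, and that of Pgd against TEneg was 0.114. G6pdx also lost the call against TEneg without library 4 (adjusted p = 0.0540) and both calls with wells of at least 1000 transcripts (0.119 and 0.148), and the one against TEpos without a filter (0.0525).

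Of the other forms of the member enzymes, 5 were tested with low genes kept, and 3 changed in both BEneg comparisons, beside 37% and 44.2% of all 552 genes. Each of the 3 passed a filter through the populations where it was high. Slc2a3 would not have reached the minimum of 10 transcripts without BEneg, and Aldoc and Ldhb passed through the tumour sums. The filter thus favoured these calls, and the count of 3 is not read as support for a change of the group. Slc2a3, the glucose carrier GLUT3, had 20 transcripts in BEneg, 3 in TEneg and 2 in TEpos, and rose by 4.05 and 4.60 on the log2 scale (SE 0.90 and 0.92, adjusted p = 0.00042 and 9.8e-05). Slc2a1, the carrier among the members, passed in neither. Whether the changes of both carriers differ from each other was not tested. Aldoc, another aldolase, went the other way, with shares of 0.816, 1.58, 1.69 and 1.80 in BEneg libraries 1 to 4. They were 7.73, 10.6, 7.31 and 6.95 in TEpos and 3.23, 10.2, 6.05 and 0.584 in TEneg, so BEneg was below every TEpos library but not below TEneg library 4. The log2 fold change was -2.33 against TEpos (SE 0.47, adjusted p = 0.00017) and -1.77 against TEneg (SE 0.50, adjusted p = 0.0048), and without library 2 the value against TEneg was -1.07 and not called (adjusted p = 0.247).

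Ldhb, the lactate dehydrogenase subunit of heart and other oxidative tissue, had 1 transcript in BEneg, 40 in TEneg and 32 in TEpos. It fell by 3.35 against TEneg (SE 1.09, adjusted p = 0.013) and by 3.09 against TEpos (SE 1.10, adjusted p = 0.022). With a count of 1 these rest on few transcripts, and with 1 library left out they ran from -6.08 to -2.28 and from -5.78 to -2.53. Without library 2 or library 4 neither call was kept (adjusted p = 0.194 and 0.0515 against TEneg, 0.0877 and 0.0804 against TEpos), and without library 3 the one against TEpos was not (0.0755). Its partner subunit Ldha has no row in this experiment.

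In the other groups few genes changed. Of 17 citrate cycle genes tested with low genes kept, Mdh1, the cytosolic malate dehydrogenase, fell in both BEneg comparisons and 0 rose. BEneg libraries 1 to 4 gave 0, 4, 2 and 0 of its transcripts, while the TEneg sums gave 80 and the TEpos sums 110. Its log2 fold change was -2.23 against TEneg (SE 0.60, adjusted p = 0.0036) and -2.43 against TEpos (SE 0.58, adjusted p = 0.00097) among the 490 genes. Of 15 hypoxia-linked genes, 2 were lower against TEneg (Epas1 and Mif), beside 15.6% of all 552 genes. Against TEpos 3 were lower (Car12, Egln3 and Mif), beside 19% of all genes, and 1 was higher (Bnip3l), beside 25.2%. The lower counts are thus near the background, and nothing is read from them about the group. Car12, a membrane carbonic anhydrase, had 2 transcripts in BEneg and 63 in TEpos, and Egln3, a prolyl hydroxylase that marks HIF proteins for decay, had 1 and 38. Bnip3l, a mitophagy receptor, had a share of 4.72 ± 1.303 in BEneg and 1.94 ± 0.951 in TEpos (SD, n = 4). Limma on means of cells did not call it (adjusted p = 0.400), nor did edgeR without a filter (0.285). Mif, a secreted cytokine, fell by 1.43 and 1.55 (SE 0.48 and 0.46, adjusted p = 0.016 and 0.0066 among the 490 genes). Without library 1 neither Mif call was kept (adjusted p = 0.0850 and 0.0864), nor the one against TEneg without library 2 (0.0770) or with DESeq2 (0.0541). Epas1, the HIF-2 alpha gene, had 0 transcripts in BEneg and 33 in TEneg (at least 4.4-fold lower at a floor of 3 counts), 25 of them in library 2, without which it was not called (adjusted p = 0.0950). Of 4 upper glycolysis genes tested, Hk2, a hexokinase that starts the route, was higher than TEpos on 8 transcripts against 2 (log2 fold change 3.15, SE 1.198, adjusted p = 0.031). DESeq2 did not call Hk2 (adjusted p = 0.0594), nor did limma on means of cells (0.139). EdgeR did not call it with total transcripts alone (0.0525) or without a filter (0.188). Of 9 genes that handle pyruvate and lactate, 0 changed in any comparison with edgeR (1 at an unadjusted p under 0.05 in BEneg versus TEneg, 0 in the others).

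**Figure D5:**
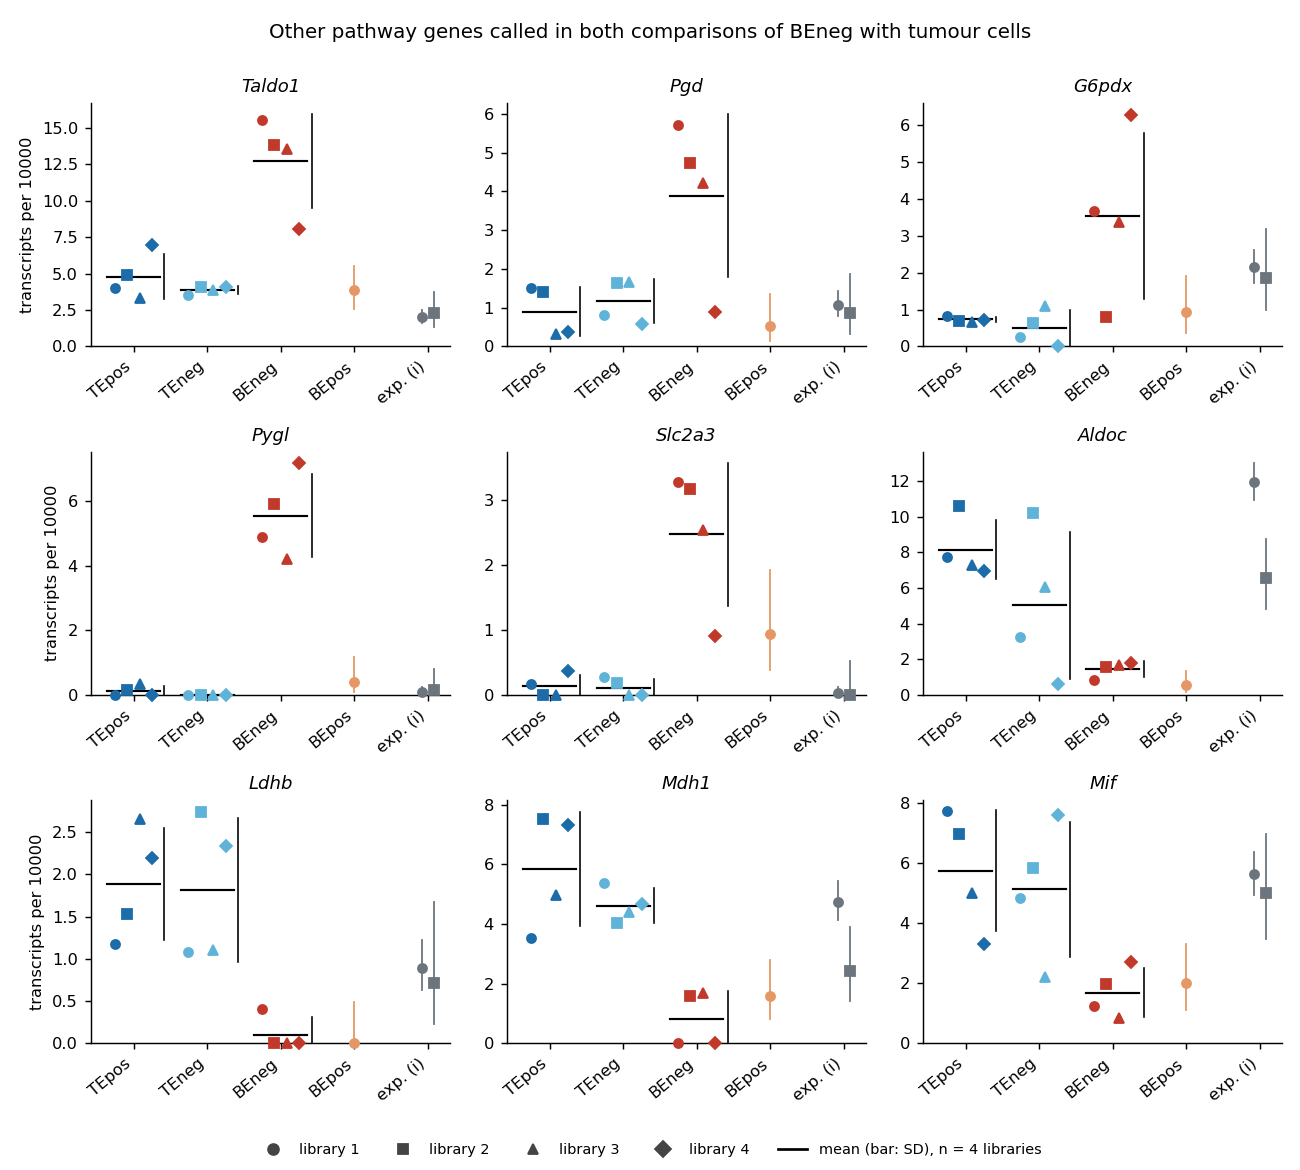
Transcripts per 10000 (vertical axis) of the 9 other pathway genes that passed the edgeR test in both BEneg comparisons, by population and library; symbols as in the plot of enzyme levels. Taldo1, Pygl, Pgd, G6pdx and Slc2a3 have BEneg means above both tumour means, and Aldoc, Ldhb, Mdh1 and Mif below them.

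In BEpos these genes did not follow BEneg throughout. Taldo1 was at 3.87 per 10000 (29 transcripts), near the tumour values and below all BEneg libraries. Pygl had 3 transcripts, Pgd 4, G6pdx 7 and Slc2a3 7, or 0.400, 0.533, 0.933 and 0.933 per 10000. Of the genes that were lower in BEneg, Aldoc had 4 transcripts, Ldhb 0, Mdh1 12 and Mif 15, or 0.533, 0, 1.5998 and 1.9998 per 10000 (a count of 0 allows up to 0.39995). These lay below the TEpos and TEneg means of each gene. Those of Mdh1 and Mif were above the BEneg means of 0.817 and 1.68. They were within the BEneg ranges over libraries (0 to 1.69 and 0.845 to 2.69), so they do not set BEpos apart from BEneg.

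Outside the pathway lists, the 5 tested genes whose share followed the summed members most closely over the 12 sums were Scp2 (Pearson r = 0.859), Hmgn2 (0.750), Hspe1 (0.721), Gm12070 (0.595) and Atf4 (0.562). The sums share libraries, depth and scaling, so these are descriptions. Of the 5, Gm12070 alone shares sequence windows with a member, 96.4% of its windows of 35 bases with Gapdh.

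Most but not all members have a short motif in a promoter window. The motif is ACGTG or its reverse complement CACGT, a form of the core that hypoxia-inducible factors are known to bind. Other forms of the core, such as GCGTG, were not searched. The motif occurs in at least 1 window of 7 of the 10 members, not in those of Eno1, Gpi1 and Tpi1. It is in 8 of their 16 windows in RefSeq (GRCm38.p6). Of all 32851 windows of the same length in that table, 19.6% hold it. The window of Gapdh, chr6:125165724-125166023, minus strand, is shown with its match in capitals. Gapdh was the most abundant of the members with usable counts in experiment (ii).
Gapdh promoter: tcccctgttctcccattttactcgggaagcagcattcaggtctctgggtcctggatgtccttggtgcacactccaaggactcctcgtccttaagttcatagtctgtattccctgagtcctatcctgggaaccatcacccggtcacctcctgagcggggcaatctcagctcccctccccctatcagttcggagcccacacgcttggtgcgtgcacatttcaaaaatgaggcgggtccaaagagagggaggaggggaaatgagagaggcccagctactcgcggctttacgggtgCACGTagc
A match is a description of these letters and says nothing on binding in these cells.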

How the data were processed

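CEL-seq values of single wells were used. Per the labels, wells held sorted cells, and per the submitters' processing notes the authors mapped reads with BWA 0.6.2-r126 to mm10, while the sources used here do not name the counter. Deposited values are the authors' estimated counts of transcripts, corrected by the authors for repeated molecular barcodes and not normalized between wells. The correction can add noise to abundant genes. Spike-ins were left out, wells with at least 500 transcripts were used, and estimated counts were summed per library and population with at least 3 cells and rounded. Each well was meant to hold 1 cell, so no doublet caller was run, and the libraries of experiment (ii) use 72 well barcodes in common by design.

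The 12 sums of TEpos, TEneg and BEneg were fitted with edgeR 4.0.16 (R 4.3.3; quasi-likelihood test, TMM, filterByExpr) with library as a block, and p-values were Benjamini-Hochberg adjusted over all genes tested. The block comes from the barcode table, which shows that each library holds wells of several populations, and residuals within a library correlated at 0.0608 to 0.351 between populations. The labels do not tie libraries to animals, so p-values speak of library-to-library spread alone, possibly technical. Alternatives used DESeq2 1.42.0, limma 3.58.1, other scalings, filters and well minimums. Intervals of log2 fold changes come from the edgeR fit and include library-to-library spread. Those of shares and of ratios cover counting error only. Library 3 of experiment (i) had 1 used well and was left out.

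The fit that kept low pathway genes and the sum of Gapdh with Gm12070 were chosen after seeing the data. The members and gene lists were chosen with earlier results of these data known. All members were named, as were other pathway genes that passed a test and the 5 tested genes outside the lists with the highest Pearson r (log2 of share plus 1) with the summed members. The gene positions and transcripts are those of GENCODE M21.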

Additional observations from a re-analysis of the deposited data

Results flagged for a closer look

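The Gapdh share of TEpos library 1 was 14.6 transcripts per 10000, far below the other 3 TEpos libraries, whose lowest was 17.6. The gap took 0.890 of the range, above the limit of 0.829 for 4 values. It was the only such value among 35 groups of 4 libraries examined, over the members and the other tested pathway genes. Chance gives about 1 such group in 20, so this flag is within what chance gives.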

How the results depend on the processing

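Depth limits these results: of 8 members with a row, 2 reached the main test, and the median BEneg cell held 819 transcripts. The call that 0 members changed was kept in all 3 comparisons under every alternative listed at the outset except limma on means of cells, which called 1 member lower in BEneg than in TEpos (Tpi1), and 2 with low genes kept (Tpi1 and Pgam1); wells of at least 250 transcripts then called 1 (Gpi1). Other pathway genes called were 0 in TEneg versus TEpos and 5 in each BEneg comparison. They became 1 (limma) in the first, 10 and 10 without a filter in the BEneg ones, and 3 to 6 in BEneg versus TEneg when 1 library was left out. With low genes kept they were 0, 10 and 13 of the 64 tested. There limma gave 2, 18 and 25, and total transcripts alone gave 18 in BEneg versus TEneg.

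Without the replicate block, 0 members passed in each comparison, and Gapdh was at -0.04, 0.15 and 0.11 (TEneg over TEpos, BEneg over TEneg, BEneg over TEpos). All genes called in TEneg versus TEpos went from 31 to 20, and no call of a member changed. Counts over all genes differed most with limma (315 and 374 in the BEneg comparisons, against 201 and 236), with no filter (99, 461 and 581) and with at least 1000 transcripts per well (17, 111 and 125). In TEneg versus TEpos 55 genes were called without the well above 20000 transcripts and 19 without library 1. Total transcripts alone called 99 higher and 187 lower of 490 in BEneg versus TEneg (117 and 84 in the main fit), and 110 and 188 against TEpos (133 and 103).

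Members that were not called changed sign under some settings, and the cause was not tested. Gapdh in TEneg over TEpos was 0.032 without the large well, 0.0013 on molecular barcodes and -0.090 to 0.094 when 1 library was left out. In BEneg over TEneg it was -0.26 with total transcripts alone, -0.43 with limma and -0.027 from 1000 transcripts per well, and over TEpos it was -0.26, -0.52 and -0.079, and -0.39 without a filter. Pgam1 in BEneg over TEneg was -0.41 with total transcripts, -0.13 with limma, -0.12 without a filter, -0.058 without the replicate block, -0.34 from 1000 transcripts and -0.13 to 0.45 leaving out 1 library, and in TEneg over TEpos -0.53 to 0.023. Slc2a1 was -1.49 (BEneg over TEneg) and -1.39 (BEneg over TEpos) from 1000 transcripts, -0.013 with limma and -0.25 without a filter (TEneg over TEpos), and with 1 library left out -0.027 to 0.29 (TEneg over TEpos), -0.075 to 1.07 (BEneg over TEneg) and -0.026 to 1.36 (BEneg over TEpos). Limma gave -0.13 for Gpi1 in TEneg over TEpos and -0.12 for Pgk1 in BEneg over TEneg, and Pgk1 was -0.054 without a filter in TEneg over TEpos. Shares of cells with Gapdh moved to 52.3%, 52.1% and 49.4% in TEpos, TEneg and BEneg with thinning. The summed level of the 6 members moved by less than 1 SD in TEpos, TEneg and BEneg under every alternative tried. All of these were shares of the total, so they do not cover the choice of scaling.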
